A study of Mus musculus with 8 samples.

Results

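Chaperones help other proteins reach and keep their folded state. The genes described here encode the cytosolic and mitochondrial chaperones: the 8 subunits of the TRiC chaperonin, 5 prefoldin subunits, the HSP90 and HSP70 systems with their cofactors, the mitochondrial chaperones and heat shock factor 1. They are the 42 genes of a list of names that was looked up in the deposited count and TPM tables, which hold 53242 genes, and every name was found. B cells were taken from spleens of C57BL/6 mice aged 8 to 12 weeks and cultured for 24 h on irradiated CD40LB cells, feeder cells that present CD40 ligand, with IL4 at 40 ng/ml. Control mice were Eif4a1+/+ CD23-cre and 4A1 KO mice were Eif4a1fl/fl CD23-cre, so that both genotypes carried the CD23-cre transgene, which drives recombination in maturing B cells. Each genotype had 4 libraries, of which odd replicate numbers were male and even ones female. Batch A held replicates 1 and 2, and batch B held 3 and 4. Replicate 1 of both genotypes had low viability and was left out of the main comparison (n = 3 per genotype), and its values are given beside the others for the members described by library.

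These chaperones act at different steps of protein folding. Prefoldin hands unfolded actin and tubulin to TRiC, a ring that closes over its client. HSP70 proteins bind exposed hydrophobic stretches in a cycle that J proteins start and nucleotide exchange factors such as HSP110 end, and HSP90 with its cochaperones takes over kinases, steroid receptors and other clients at a later stage. The HSP60 ring with its HSP10 lid, and mitochondrial HSP70, do the same work in the mitochondrial matrix. HSF1 is the transcription factor that binds heat shock elements and raises transcription of many of these genes during protein-folding stress. Lymphocytes enlarge and multiply their protein synthesis on activation, and chaperone mRNAs are abundant in them.

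Replicates 2 to 4 had total counts from 38488341 to 43210858, and 4A1 KO replicate 1, the smallest library, had 31727557. Eif4a1 itself fell, with 748, 940 and 881 CPM (counts scaled to library size with the TMM method) in control replicates 2 to 4 and 556, 641 and 689 CPM in 4A1 KO (log2 fold change -0.44, edgeR quasi-likelihood test, adjusted p = 1.15e-04). The counts cover the whole gene, so the deleted part cannot be read apart from the rest. In replicates 2 to 4 the 8 B cell markers summed to between 11377 and 13536 CPM in control and between 12513 and 14872 CPM in 4A1 KO. Of these, 4 fell, Cd79a (log2 fold change -0.67), Cd79b (-0.89), Cr2 (-1.10) and Pax5 (-0.23). The 2 that rose, Cd74 (0.20) and Fcer2a (0.30), had the highest CPM of the 8 and weighed most in the sum. Per the study's methods, feeder cells were removed with an antibody and beads before RNA was isolated. The 10 fibroblast markers, which remaining feeder cells could bring, summed to between 28.8 and 48.0 CPM in control and between 23.3 and 35.2 CPM in 4A1 KO libraries. Lum and Postn were at 0 in all 8 libraries, and of the 6 tested 2 fell and 1 rose. The 6 macrophage markers summed to between 8.45 and 11.7 CPM in control and between 14.1 and 16.0 CPM in 4A1 KO, and 2 of the 3 tested, Adgre1 and Cd68, rose. Adgre1 and Cd68 made up most of this sum. Lyz2 did not pass the test, and Csf1r, C1qa and C1qb were too low to be tested. The 5 plasma cell markers summed to between 622 and 929 CPM in control and between 549 and 691 CPM in 4A1 KO, and 3 fell, and T cell markers summed to at most 1.11 CPM. In replicate 1 the sums were 15429 CPM in control and 16800 CPM in 4A1 KO for B cell markers, 27.5 and 32.7 CPM for fibroblast markers, 14.4 CPM in control for macrophage markers and 827 and 633 CPM for plasma cell markers, so that the macrophage sum of control replicate 1 lay within the range of 4A1 KO. The part of these other cells in the results was not tested. In bulk RNA fewer cells of a type and less RNA per cell cannot be told apart.

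Of the 42 chaperone genes, all of which passed the filter on low counts, 19 fell, 7 rose and 16 did not pass the test at an adjusted p under 0.05. Over all 14218 genes tested, 26.7% fell and 26.3% rose, so the share of members that fell (45.2%) was above and the share that rose (16.7%) below that of all genes. The median log2 fold change was -0.14 over the members and 0.01 over all genes. With the additional requirement of an absolute log2 fold change above 0.5, 5 members fell (11.9%) and 0 rose, where 13.7% of all genes fell and 11.6% rose. Most changes of members were small, and the others that passed the test moved by a log2 of less than 0.5. Together the members held 2.75% to 2.90% of all counts in the control libraries of replicates 2 to 4 and 2.48% to 2.54% in 4A1 KO. Much of this decrease came from the single gene Hspa8, whose mean went from 2654 CPM in control to 1314 CPM in 4A1 KO.

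**Figure D1:**
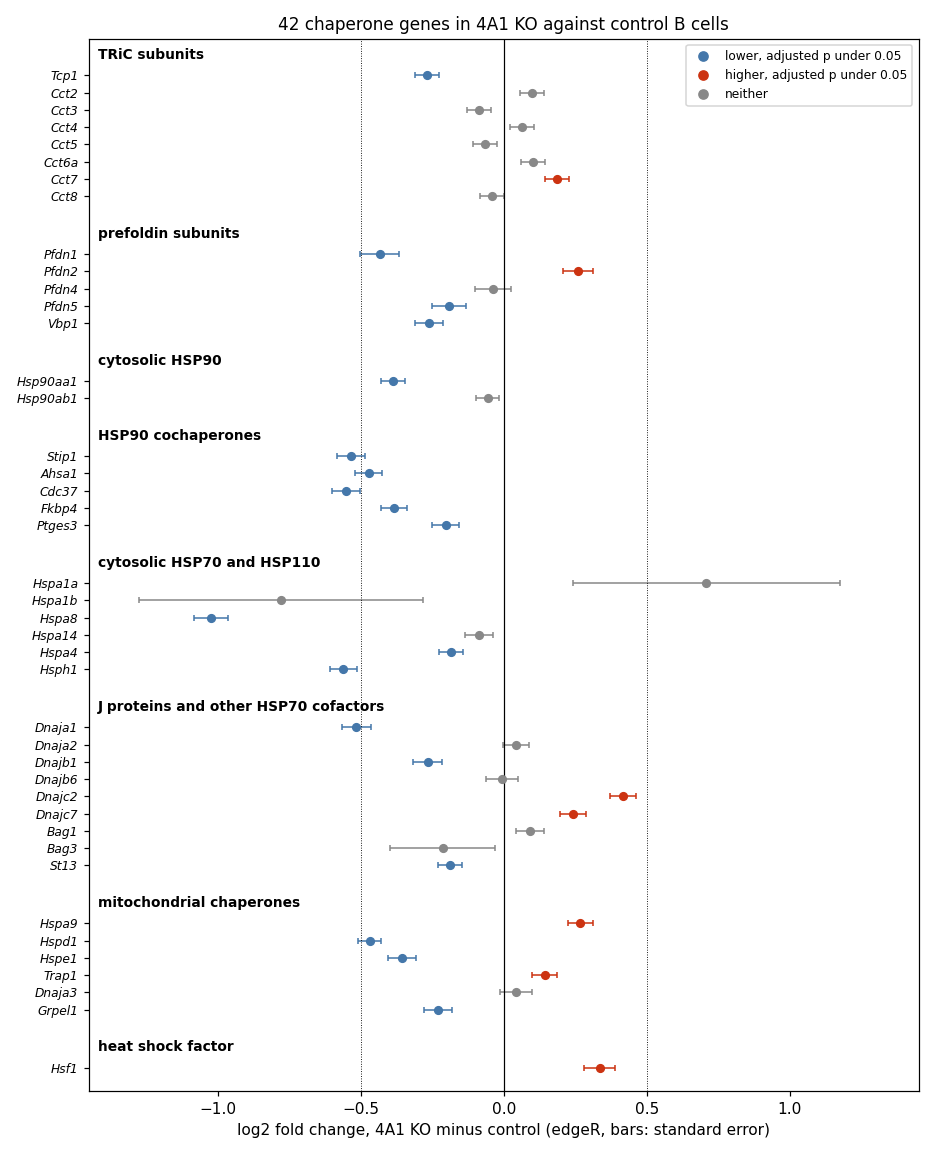
Log2 fold change of each of the 42 genes, 4A1 KO minus control, in edgeR's fit of replicates 2 to 4 (points; bars are standard errors), grouped by family; colour marks the adjusted p and dotted lines an absolute log2 fold change of 0.5. Hspa8 lies farthest to the left at -1.02, all 5 HSP90 cochaperones lie left of 0, and TRiC subunits lie close to 0.

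Promoters of chaperone genes can hold heat shock elements, arrays of GAA and its reverse complement TTC that alternate with 2 bases between. The window from 250 bases before to 50 bases after the start site of each gene's canonical transcript (GENCODE M39, GRCm39) was searched on both strands for the 2-unit form, GAANNTTC or TTCNNGAA. It was present in 14.2% of the 21612 windows of protein-coding genes and in 11 of the 42 members (26.2%). The 3-unit form, which contains the 2-unit form, was present in 0.477% of all windows and in 2 members, Hspd1 and Hspe1. The 30 bases around the match are shown for members whose match lay before the start site, with the matching bases in capitals, because most of these genes fell in 4A1 KO B cells and the last 3 did not pass the test. Some transcripts of these genes start farther upstream.
Hspe1, chr1:55127212-55127241, plus strand, lower in 4A1 KO: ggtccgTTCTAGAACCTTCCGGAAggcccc
Hsph1, chr5:149559816-149559845, minus strand, lower: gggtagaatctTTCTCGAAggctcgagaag
Dnaja1, chr4:40722333-40722362, plus strand, lower: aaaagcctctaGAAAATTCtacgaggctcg
Cdc37, chr9:21061382-21061411, minus strand, lower: tcggcgggaacTTCCAGAAggcctcaccac
Fkbp4, chr6:128415752-128415781, minus strand, lower: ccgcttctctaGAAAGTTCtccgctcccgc
Cct5, chr15:31602008-31602037, minus strand, not past the test: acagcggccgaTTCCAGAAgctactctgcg
Hspa1a, chr17:35191218-35191247, minus strand, not past the test: cgaaactgctgGAAGATTCctggccccaag
Hspa1b, chr17:35178300-35178329, minus strand, not past the test: cgaaactgctgGAAGATTCctggccccaag

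The run of capitals upstream of Hspe1 held 3 overlapping matches. It lies between the start sites of Hspe1 and Hspd1, which are 108 bases apart on opposite strands, so that both genes share it. Of the 11 members with a match, 8 fell, 0 rose and 3 did not pass the test. These 8 were Hspd1, Hspe1, Hsph1, Dnaja1, Cdc37 and Fkbp4, and Stip1 and Dnajb1, whose matches lay 35 and 29 bases after the start. Of the 31 members without a match, 11 fell and 7 rose. The median log2 fold change was -0.47 with and -0.04 without a match among members, and -0.07 and -0.01 among all protein-coding genes tested. Of these protein-coding genes, 479 of 1427 with a match fell and 347 rose, and 3010 of 10009 without one fell and 2858 rose. Of 12 other chaperone genes with a match, 1 fell and 2 rose, with a median of 0.01, and of 59 without one 19 fell and 11 rose, with a median of -0.06. Hspa8, which fell most, had no match in its window, and no match says only that these letters are not in these bases. The E-box CACGTG was present in 7.85% of all windows and in 3 members, Hsph1, Dnaja2 and Dnajc2.

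**Figure D2:**
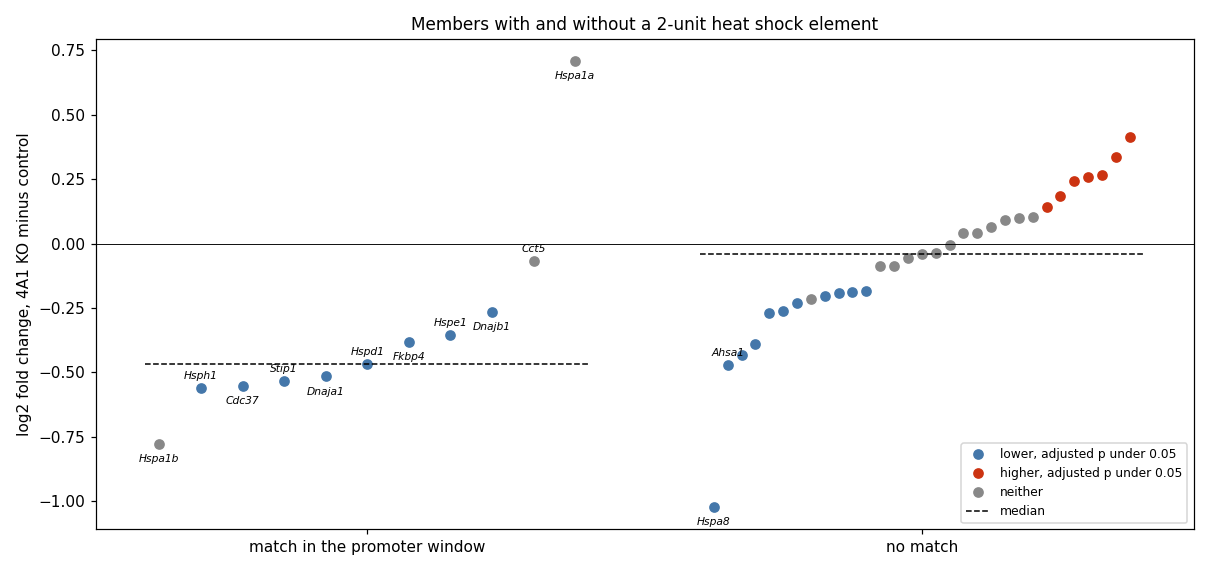
Log2 fold change (4A1 KO minus control, edgeR, replicates 2 to 4) of the 11 members with and the 31 members without GAANNTTC or TTCNNGAA in the promoter window; each point is a gene, coloured by its call, and dashed lines are medians. Points with a match have a median of -0.47 and include Hspa1a and Hspa1b, which were close to 0 counts.

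The largest decrease of a single member was in the cytosolic HSP70 system, in which 3 of 6 members fell. Hspa8 (chr9:40711630-40731039) encodes HSC70, the constitutive cytosolic HSP70, which folds new proteins, uncoats clathrin vesicles and delivers proteins to lysosomes. Its level was 2599, 2340, 2855 and 2766 CPM in control replicates 1 to 4 and 1104, 1089, 1311 and 1541 CPM in 4A1 KO. Every 4A1 KO library lay far below every control library, and the highest 4A1 KO value was that of replicate 4. Expression fell to 0.492 of control (log2 fold change -1.02 ± 0.06 SE, edgeR adjusted p = 1.03e-05), and the exact two-sided permutation test over the 8 libraries gave p = 0.0286, the smallest that 4 against 4 allows. On the scale of TPM, which is corrected for transcript length, Hspa8 was at 2514 ± 325 (SD, n = 3) in control and at 1231 ± 249 in 4A1 KO.

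Hspa8 has processed pseudogenes, copies without introns, that its reads could also match. In all, 5 other genes matched at least 200 bases of its coding sequence at 95% identity or more, and they held 8.04% of the counts of Hspa8 and copies together. The log2 ratio of mean CPM was -1.06 for the copies, -1.02 for Hspa8 and -1.02 for their sum. Gm15459, named after its values were seen, matched 1941 bases at 99.7% identity and held 7753, 10044 and 9973 counts in control replicates 2 to 4 against 3455, 4177 and 5386 in 4A1 KO. How reads that match several places were counted is not given in the sources used here, so the split between gene and copy is uncertain.

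The nucleotide exchange factors that release HSP70 from its client moved less. Hsph1 (chr5:149537636-149560156), which encodes HSP110, was at 303, 283, 430 and 412 CPM in control replicates 1 to 4. In 4A1 KO it was at 210, 198, 275 and 286 CPM. Batch B was higher than batch A in both genotypes, and the groups touched, since the highest 4A1 KO value exceeded the control value of replicate 2, but within each replicate number 4A1 KO was lower. The log2 fold change was -0.56 ± 0.05 SE (edgeR adjusted p = 3.22e-05). Over all 8 libraries without regard to batch, the exact permutation test gave p = 0.0571. Hspa4, another HSP110-type exchange factor, fell by 0.19 on the log2 scale (adjusted p = 0.00548). Bag1 (0.09, adjusted p = 0.149) and Bag3 (-0.21, adjusted p = 0.352), exchange factors that link HSP70 to degradation, did not pass the test, and Bag3 was low, with 68 to 128 counts per library. With all 8 libraries Bag1 was called higher (0.12, edgeR adjusted p = 0.0365).

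The stress-inducible HSP70 genes Hspa1a and Hspa1b were close to absent. Hspa1a had 11, 3, 6 and 11 counts in control replicates 1 to 4 and 24, 5, 16 and 11 in 4A1 KO. Hspa1b had 17, 16, 14 and 19 counts in control and 13, 3, 18 and 8 in 4A1 KO. At this depth no difference was detectable, with adjusted p of 0.233 and 0.218, and without replicate 3 the fitted decrease of Hspa1b passed the test (-1.63, adjusted p = 0.0331). These genes lie 12918 bases apart on chromosome 17 and are 99.2% identical over 2201 bases, and 247 of the 250 bases before their start sites are the same, so that the division of reads between them is uncertain.

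J proteins, which bring clients to HSP70 and start its ATPase, did not move together. Dnaja1 (chr4:40722056-40737149) fell: it was at 244, 245, 304 and 287 CPM in control and at 177, 180, 198 and 207 CPM in 4A1 KO. The libraries of the genotypes did not overlap, and the log2 fold change was -0.52 ± 0.05 SE (adjusted p = 6.01e-05). Dnajb1, the J protein of the HSP70 disaggregase, also fell (-0.27, adjusted p = 0.00232). Dnaja2 (0.04, adjusted p = 0.465) and Dnajb6 (-0.01, adjusted p = 0.936) did not pass the test.

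The J proteins Dnajc2 and Dnajc7 rose. Dnajc2 encodes the ribosome-bound J protein of the ribosome-associated complex, and it rose by a log2 of 0.42 on the CPM scale (adjusted p = 1.07e-04). Its TPM were 205 ± 1.66 (SD, n = 3) in control libraries and 266 ± 8.56 in 4A1 KO libraries. Its HSP70 partner in that complex, Hspa14, did not pass the test (-0.09, adjusted p = 0.165), and 2273 exonic bases of Hspa14 are shared on the same strand with Msantd7, so its counts are uncertain. Dnajc7, which binds HSP70 and HSP90 through TPR repeats, rose by a log2 of 0.24 (adjusted p = 0.00212). St13, the HSP70-interacting protein HIP and the member with the highest mean TPM of this family in control, was at 249, 250, 285 and 269 TPM in control replicates 1 to 4. In 4A1 KO it was at 218, 221, 245 and 237 TPM (-0.19 on the log2 CPM scale, adjusted p = 0.00554), so that Dnajc7 with 276 ± 8.31 TPM stood above St13 with 234 ± 12.3 TPM (SD, n = 3) there. The family of 9 summed to 1346 ± 34.3 TPM in control libraries and 1368 ± 15.2 TPM in 4A1 KO libraries, and 3 members fell while 2 rose.

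**Figure D3:**
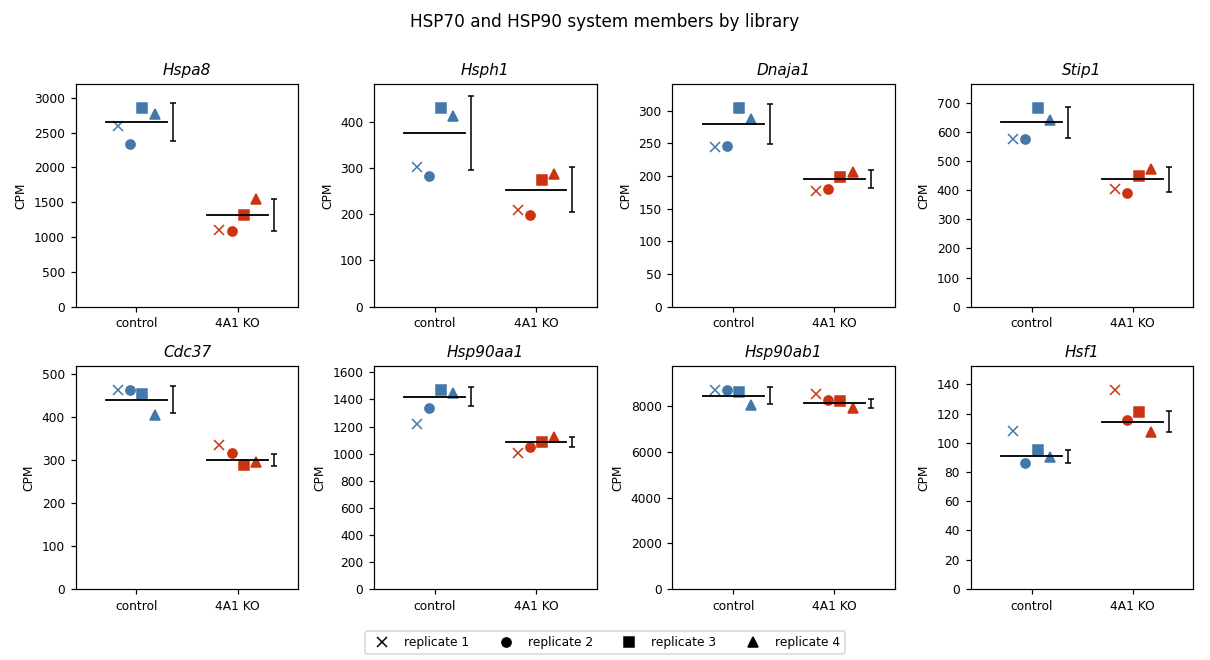
CPM by library of 8 members of the HSP70 and HSP90 systems; each symbol is a library (replicate 1, a cross, was not in the main comparison), horizontal lines are means of replicates 2 to 4 and vertical bars their SD. The axis starts at 0; Hspa8 lies between 2340 and 2855 CPM in control and between 1089 and 1541 CPM in 4A1 KO, while Hsp90ab1 overlaps between the genotypes.

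HSP90 mRNA was dominated by the constitutive beta form. Hsp90ab1 was at 6320, 6517, 6524 and 6314 TPM in control replicates 1 to 4 and at 6079, 6153, 6229 and 6111 TPM in 4A1 KO, the highest TPM of any member. On the CPM scale the genotypes overlapped and the log2 fold change of -0.06 ± 0.04 SE did not pass the test (adjusted p = 0.274). The inducible alpha form Hsp90aa1 fell from 961 ± 61.8 TPM to 729 ± 38.2 TPM (SD, n = 3), a log2 fold change in CPM of -0.39 (adjusted p = 1.08e-04). It made up 13.0% ± 0.887 of cytosolic HSP90 TPM in control and 10.6% ± 0.534 in 4A1 KO.

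All 5 HSP90 cochaperones fell in the count fit. Stip1 (chr19:6998060-7017394) encodes HOP, which passes clients from HSP70 to HSP90, and had the highest TPM of the 5 in control. It was at 576, 575, 683 and 640 CPM in control and at 404, 390, 448 and 473 CPM in 4A1 KO, with no overlap (log2 fold change -0.53 ± 0.05 SE, adjusted p = 4.23e-05). Ahsa1, which stimulates the HSP90 ATPase, fell by a log2 of 0.47, Fkbp4, an immunophilin of steroid receptor complexes, by 0.38, and Ptges3, the p23 cochaperone, by 0.20 (adjusted p = 6.98e-05, 1.60e-04 and 0.00611).

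Cdc37 (chr9:21044518-21061278) encodes the cochaperone that brings protein kinases to HSP90. It was at 462, 461, 452 and 404 CPM in control and at 334, 316, 287 and 294 CPM in 4A1 KO. The genotypes did not overlap, and the log2 fold change was -0.55 ± 0.05 SE (adjusted p = 4.39e-05). The TPM table differed in a single library. Control libraries were at 149, 149, 152 and 143 TPM, and 4A1 KO libraries at 97.9, 242, 94.8 and 95.7 TPM, so that replicate 2 was high in TPM and not in counts. With that library in the TPM comparison the change of Cdc37 was not called (limma on log2(TPM + 1), -0.18, adjusted p = 0.578).

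Genes of the same pathways outside the list were tested in the same fit. Over the 71 other chaperone genes tested, without those of the endoplasmic reticulum, 20 fell (28.2%) and 13 rose (18.3%). Over all genes tested 26.7% fell and 26.3% rose, so the share that fell was near that of all genes. Of 15 other HSP90 cochaperones 9 fell and 1 rose. Ahsa2, a paralog of Ahsa1, fell by a log2 of 0.69 and the immunophilin Fkbp5 by 0.67, and Cdc37l1, a paralog of Cdc37, rose by 0.58. Of 12 other HSP70, BAG and small heat shock genes tested 4 fell and 1, Bag5, rose (0.28). Bag2, a regulator of the HSP70-bound ubiquitin ligase CHIP, fell from 14.0, 17.7 and 20.9 CPM in control replicates 2 to 4 to 7.11, 6.54 and 10.6 CPM (log2 fold change -1.13, adjusted p = 6.57e-05). Bag4 (-0.23), Hspa12a (-0.79) and Hspb6 (-0.61) also fell, the last 2 at 3.04 CPM or less in every library. Other J proteins again went both ways, with 8 that rose and 4 that fell of 21. Dnajc9, which also carries histones, fell by 0.94, and Dnajc27, Dnajb14 and Dnajc21 rose by 0.94, 0.60 and 0.59 on the log2 scale.

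TRiC subunit mRNAs kept the same sum. The 8 subunits added up to 6451 ± 255 TPM in control and 6453 ± 201 TPM in 4A1 KO (SD, n = 3). Tcp1, the alpha subunit, fell by a log2 of 0.27 (adjusted p = 7.38e-04) and Cct7, the eta subunit, rose by 0.19 (adjusted p = 0.00581), while the other 6 lay between -0.09 and 0.10 and did not pass the test. Cct5, the epsilon subunit and the highest in TPM in control, was at 1028, 1026, 1077 and 1063 TPM in control replicates 1 to 4 and at 935, 979, 1014 and 1037 TPM in 4A1 KO (log2 fold change in CPM -0.07 ± 0.04 SE, adjusted p = 0.214).

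Each TRiC ring holds every subunit at a single copy, but the mRNAs were not equal. In control libraries Cct5 held 16.4% of the summed TPM and Cct4 8.60%, a ratio of 1.90. The share of Tcp1 was 11.7% ± 0.167 in control and 9.84% ± 0.182 in 4A1 KO, with no overlap among the 8 libraries. This was not particular to Tcp1, since the shares of Cct2, Cct3, Cct4, Cct5 and Cct7 did not overlap either. Those of Cct6a and Cct8 did overlap, and shares of the same sum depend on each other. Cct7 made up 11.8% ± 0.946 in control and 13.5% ± 0.421 in 4A1 KO. How many TRiC subunits were called higher depended on the setting: Cct2 and Cct6a also passed the test with all 8 libraries and with upper quartile normalization, which gave 3, and Cct7 did not pass it without the replicate block (adjusted p = 0.0596). Cct3 was called lower on the TPM scale (limma on log2(TPM + 1), -0.14, adjusted p = 0.0311), though not without the filter on low TPM (adjusted p = 0.0964). Of 7 tested genes of TRiC cofactors and prefoldin-like proteins outside the list, 2 fell, Pdrg1 (-0.42) and Uri1 (-0.33), and 0 rose.

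Of the 5 prefoldin subunits, 3 fell, 1 rose and 1 did not pass the test. Pfdn5, the highest in TPM, was at 322, 288, 283 and 249 TPM in control replicates 1 to 4 and at 262, 257, 219 and 223 TPM in 4A1 KO (log2 fold change in CPM -0.19 ± 0.06 SE, adjusted p = 0.0233). The groups overlapped in the library of control replicate 4. The call of Pfdn5 was lost without replicate 2 (adjusted p = 0.0620) and without replicate 3 (adjusted p = 0.219). In addition, 1328 exonic bases are shared with Myg1 on the same strand, so its counts are uncertain. Pfdn1 fell by a log2 of 0.43 (adjusted p = 8.26e-04) and Vbp1, prefoldin subunit 3, by 0.26 (adjusted p = 0.00188), Pfdn2 rose by 0.26 (adjusted p = 0.00299, but 0.0509 with TPM and no filter on low values), and Pfdn4 did not pass the test. With Pfdn6, which was not in the list, added to complete the complex, Pfdn2 held 13.4% ± 0.440 of prefoldin TPM in control and 16.3% ± 0.637 in 4A1 KO.

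**Figure D4:**
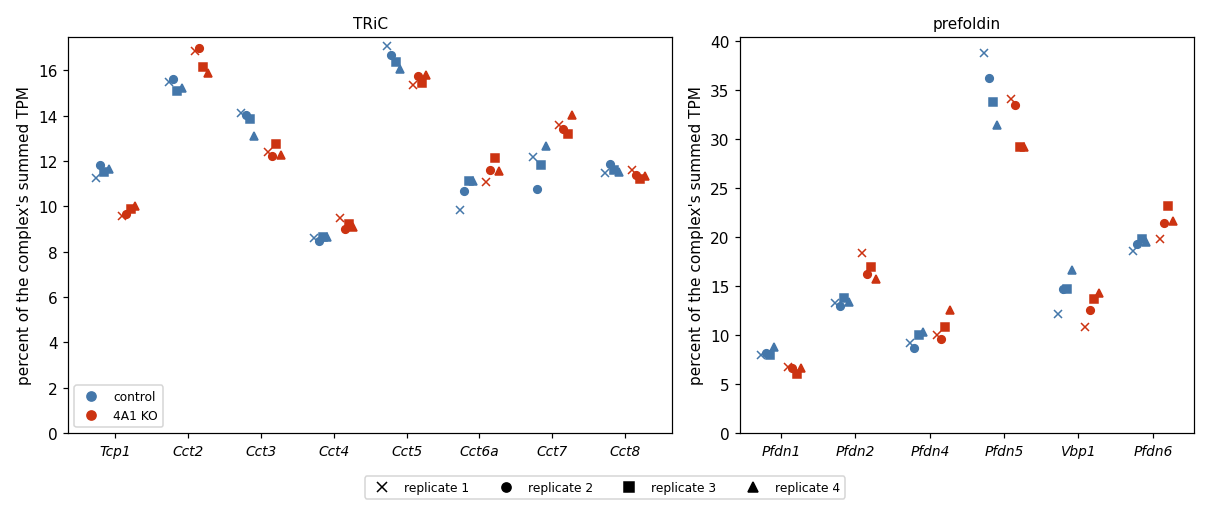
Share of the summed TPM of TRiC (left) and prefoldin (right, with Pfdn6) held by each subunit, in percent; each symbol is a library and replicate 1 is a cross. Tcp1 shares lie between 9.59% and 10.0% in 4A1 KO and between 11.3% and 11.8% in control, and Cct7 and Pfdn2 shares are higher in 4A1 KO.

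In mitochondria the HSP60 chaperonin and the mitochondrial HSP70 moved in opposite directions. Hspd1 (chr1:55116989-55171038), which encodes HSP60, had the highest TPM of this family in control. It was at 775, 876, 995 and 1077 TPM in control replicates 1 to 4 and at 598, 618, 732 and 774 TPM in 4A1 KO, and within each replicate number 4A1 KO was lower (log2 fold change in CPM -0.47 ± 0.04 SE, adjusted p = 3.78e-05). Hspe1, the HSP10 lid, fell from 654 ± 11.6 TPM to 507 ± 12.6 TPM (-0.36, adjusted p = 3.44e-04). Grpel1, the nucleotide exchange factor of mitochondrial HSP70, fell by a log2 of 0.23 (adjusted p = 0.00370).

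Hspa9, the mitochondrial HSP70, rose from 724 ± 25.1 TPM to 868 ± 51.5 TPM (SD, n = 3, log2 fold change in CPM 0.27 ± 0.05 SE, adjusted p = 0.00108). In control Hspd1 stood above Hspa9 in TPM in every library, and in 4A1 KO it stood below. Trap1, the mitochondrial HSP90, passed the test at 0.14 (adjusted p = 0.0248), but not with DESeq2 or without any of the 3 replicates (adjusted p between 0.0503 and 0.0850), nor without the replicate block (adjusted p = 0.0902). Dnaja3, the mitochondrial J protein, did not pass it (0.04, adjusted p = 0.544). Of 12 other mitochondrial chaperones and proteases 2 rose, Dnlz (0.28) and Clpx (0.26), and 0 fell.

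**Figure D5:**
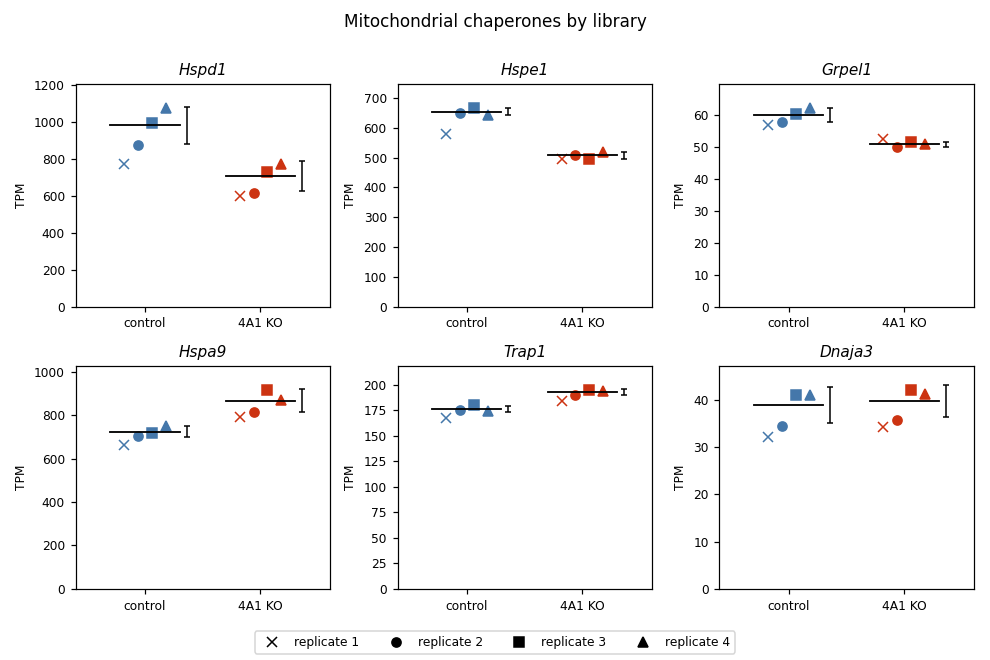
TPM by library of the 6 mitochondrial chaperones; each symbol is a library (replicate 1 is a cross), horizontal lines are means of replicates 2 to 4 and vertical bars their SD, and axes start at 0. Hspd1, Hspe1 and Grpel1 are lower and Hspa9 and Trap1 higher in 4A1 KO, and Dnaja3 overlaps between the genotypes.

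Copies of mitochondrial and other members were counted in the same way, and genes named after a member were looked up as well. Hspd1-ps3, a copy of Hspd1 at 99.0% identity, held 3966, 4678 and 4947 counts in control replicates 2 to 4 and 2811, 3241 and 3692 in 4A1 KO (-0.44, adjusted p = 1.37e-04). Ptges3-ps (-0.16, adjusted p = 0.0523) and Hspa9-ps1 (0.24, adjusted p = 0.154) did not pass the test. Hspa9-ps1 was found by its name only and was not among the sequence matches. The copies held 8.54% of the counts of Hspd1 and copies together, 8.85% for Dnaja1, 2.98% for Hsp90aa1 and 18.4% for Ptges3. Adding them moved the log2 ratio of mean CPM from -0.47 to -0.47 for Hspd1, from -0.52 to -0.53 for Dnaja1 and from -0.21 to -0.20 for Ptges3.

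Hsf1 (chr15:76361558-76388138), which encodes the heat shock transcription factor, rose. It was at 108, 86.4, 95.3 and 90.5 CPM in control replicates 1 to 4 and at 136, 116, 121 and 107 CPM in 4A1 KO. Control replicate 1 lay within the range of 4A1 KO, but within each replicate number 4A1 KO was higher. The log2 fold change was 0.34 ± 0.05 SE (adjusted p = 8.55e-04), with the exact permutation test over the 8 libraries at p = 0.0571. Of 2 other heat shock factors and regulators tested, 1 rose, Hsf2 (0.22), and 0 fell.

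Folding machinery of other compartments was counted for comparison. Of 18 chaperones of the endoplasmic reticulum 13 fell and 2 rose, Dnajc1 (0.63) and Dnajb9 (0.42), with Sdf2l1 (-0.91), Manf (-0.81), Pdia4 (-0.80) and Pdia6 (-0.65) the largest decreases. Of 31 constitutive proteasome subunits, 21 fell and 1 rose, Psmd8 (0.45), and 3 of them fell by a log2 of more than 0.5, Psmd12 (-0.52), Psmd13 (-0.51) and Psma1 (-0.51). The shares that fell were 72.2% and 67.7% in these 2 lists, where 26.7% of all genes fell. At both thresholds the shares were 33.3% for the endoplasmic reticulum and 9.68% for the proteasome, where 13.7% of all genes fell. In the nascent polypeptide-associated complex, which meets chains at the ribosome, 1 of the 2 genes fell, Naca (-0.21). The median log2 fold changes were -0.35 for the endoplasmic reticulum list and -0.22 for the proteasome list, beside -0.14 for the members. No difference between these lists was tested. Dnajc1, Dnajb9, Psmd8, Naca, Pdrg1, Uri1, Bag4, Bag5, Dnlz, Clpx and Hsf2 were named after their values were seen.

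The genotype effect did not differ detectably between sexes or between batches in any member: 0 of the 42 passed an interaction test over the 8 libraries (edgeR, adjusted p under 0.05), where 0 of 14211 genes passed for sex and 1 for batch. Each combination of sex and batch held 1 library per genotype.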

How the data were processed

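The authors trimmed the reads with Trim Galore 0.6.6, mapped them to GRCm39 with HISAT2 2.1.0 and counted read pairs by strand over merged isoforms with Seqmonk, and deposited these raw counts. The deposited TPM were made by the authors with StringTie 2.1.1. Every column of sample values in both tables was used. The members and lists were chosen with earlier results of these data known.

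Counts were filtered (filterByExpr by genotype), TMM-normalized and fitted with edgeR 4.0.16 in R 4.3.3 (quasi-likelihood test, two-sided, Benjamini-Hochberg over all 14218 genes) with batch and sex as covariates. In these 6 libraries the covariates equal the replicate number as a block. Same-numbered libraries come from the same batch and sex, and their deviations from the genotype means correlated across genes (r between 0.47 and 0.63). Genes were called at an adjusted p under 0.05, with a further threshold of 0.5 on the absolute log2 fold change. Libraries of a genotype came from individual mice, per the study's methods. CPM are counts over TMM-scaled library size. Total counts ranged from 31727557 to 43210858.

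Values by library are given for members called at both thresholds, Hspa1a, Hspa1b, the highest in TPM of each family and Hsf1, and in other lists at most 4 genes called at both thresholds. Copies named after a member are given where they reached 100 counts, apart from an item that is not reported here.

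Of 53242 genes 52647 matched GENCODE M39 by identifier, which gave coordinates and start sites. Apart from genes found by name, copies were found with blastn as transcripts of other genes that match at least 200 coding bases at 95% identity. The code was tested on simulated data. Alternatives were other normalizations, DESeq2 1.42.0, no filter, all 8 libraries, no replicate block, leaving out replicates, limma 3.58.1 on log2(TPM + 1) or log2(TPM + 0.1) with and without a minimum mean of 1 TPM, and a promoter window without the bases after the start.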

Additional observations from a re-analysis of the deposited data

Results flagged for a closer look

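In 3 of the 84 sets of 4 libraries examined (each of 42 genes in each genotype), a single library stood apart from the other 3 by Dixon's ratio, the gap to the nearest value over the whole range. Chance alone gives 4.2 of 84. Cct7 in 4A1 KO replicate 2 had the largest ratio (0.931): it was at 809 CPM, where the other 3 libraries lay between 856 and 859 CPM. Hsp90ab1 in control replicate 4 had a ratio of 0.886, and Cdc37 in control replicate 4, at 404 CPM, a ratio of 0.830. The last 2 values come from the same library and the Cct7 value from another, and their cause was not tested.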

How the results depend on the processing

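The calls of most members did not depend on the setting. Of 43 genes, the 42 members and Eif4a1, 39 had the same direction and call with all 8 libraries, 42 with DESeq2, and 38 without the replicate block. Without the block, 5 calls were lost (Cct7, Pfdn5, Ptges3, St13 and Trap1) and 2445 of all genes were called higher. TRiC subunits called higher numbered 3 with upper quartile normalization, 3 with all 8 libraries and 0 without the block. Members called lower at both thresholds numbered 3 in each of the TPM settings, which were Hspa8, Hsph1 and Stip1, where 11.8% of all genes were lower with log2(TPM + 1). They numbered between 3 and 6 without 1 replicate, where between 1690 and 2093 of all genes were lower. Without replicate 3, these 3 were Hspa8, Hsph1 and Hspa1b. Members called higher numbered 4 with TPM and no filter, since Cct7, Pfdn2 and Trap1 lost their calls. Values near 0 changed sign: the median of the J protein family, which is Dnajb6, was 0.017 with upper quartile normalization, 0.041 with all 8 libraries and between -0.0090 and 0.0018 without 1 replicate, and Pfdn4 was 0.10 in the TPM settings. The median of the cytosolic HSP70 and HSP110 family went from -0.37 to -0.58 without replicate 4, where Hspa1a was not tested and the median is Hspa1b. The causes were not tested. In the promoter window without the bases after the start, 9 members in place of 11 held the 2-unit element. With 3 libraries per genotype, changes of the size of that of Trap1 were at the limit of the test, and Hspa1a and Hspa1b, with at most 24 counts per library, had standard errors of 0.47 and 0.50 on the log2 scale.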
